A study of Mus musculus with 4 samples.

Results

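The collagen chain genes were followed in MC38, a mouse colon adenocarcinoma cell line, in which Mgat5 had been targeted by CRISPR-Cas9. That gene encodes the Golgi enzyme that adds a branch to N-linked glycans. The members were all genes whose symbol reads Col, a number, a and a number. Among probe sets annotated with a single symbol, the array held 42 such genes, each with 1 probe set. There were 19505 named genes and 22206 probe sets in all. Total RNA of 4 cell populations was hybridised, 1 Clariom S array each. The controls were the MC38 control condition (WT) and MC38 cells given an empty vector (MOCK). The knockout group was clone 1 and clone 2 of the cells titled KO T5, so each knockout array is 1 clone, and no control is titled as a clone. Effects of Mgat5 loss and of cloning therefore cannot be told apart. No label says that the arrays came from separate cultures, so a p-value here measures the spread between these 4 arrays only. A cell label names the Mgat5 knockout on all 4 samples, the controls included, and the titles were followed.

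Collagens are built from 3 chains wound into a triple helix. The fibrillar types give tissues tensile strength, type IV forms the sheet of basement membranes, the fibril-associated types coat fibrils, and type VI makes beaded filaments around cells. Carcinoma tissue owes most of its fibrillar collagen to fibroblasts, and carcinoma cells themselves are better known for basement membrane chains. Several procollagens carry N-linked glycans.

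Mgat5 read 8.19 (MOCK), 8.27 (WT), 7.46 (clone 1) and 7.57 (clone 2) (log2 signal, limma adjusted p = 0.631). Both clones were below both controls. Where the probes lie relative to the edited site is not stated in the labels, so this signal need not check the knockout. The arrays differed in their overall spread of signals. The 75th percentile of all probe sets ran from 8.87 in WT to 9.60 in clone 2, and the median difference, knockout minus control, was 0.18 log2 units over all probe sets and -0.02 after quantile normalization. A gene is called above background here where its signal exceeded the 75th percentile of the array's 5222 negative control features, which ran from 6.29 to 6.56 log2 units. None of the 10 measured epithelial markers, Epcam, Cdh1, Krt8 and Cdx2 among them, was above background on any array (0 of 10), although the line is labelled colon adenocarcinoma. Of 10 fibroblast markers 5 were above background on at least 1 array, namely Dcn, Postn, Twist1, Twist2 and Pdgfrb. Thy1, Fap, Lum, Acta2 and Tagln were not. Of the markers of endothelium 0 of 6 and of leukocytes 0 of 5 were above background, and of cartilage only the transcription factor gene Sox9 was (1 of 6).

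Most collagen genes gave no signal above background. Only 13 of the 42 did so on at least 1 array and 7 on all 4 arrays, or 31.0% and 16.7%, against 46.3% and 39.2% of all probe sets. The 7 were Col3a1, Col11a2, Col16a1, Col6a1, Col6a2, Col6a3 and Col8a2. Another 6 (Col1a2, Col5a1, Col5a2, Col4a2, Col8a1 and Col13a1) were above background on some arrays. The other 29 had signals between 3.07 and 6.47 on every array, and their levels differed by at most 1.24 log2 units over the 4 arrays. By class, 5 of 11 fibrillar genes, 1 of 8 basement membrane genes, 1 of 8 fibril-associated genes and 6 of 15 other genes were above background somewhere.

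**Figure D1:**
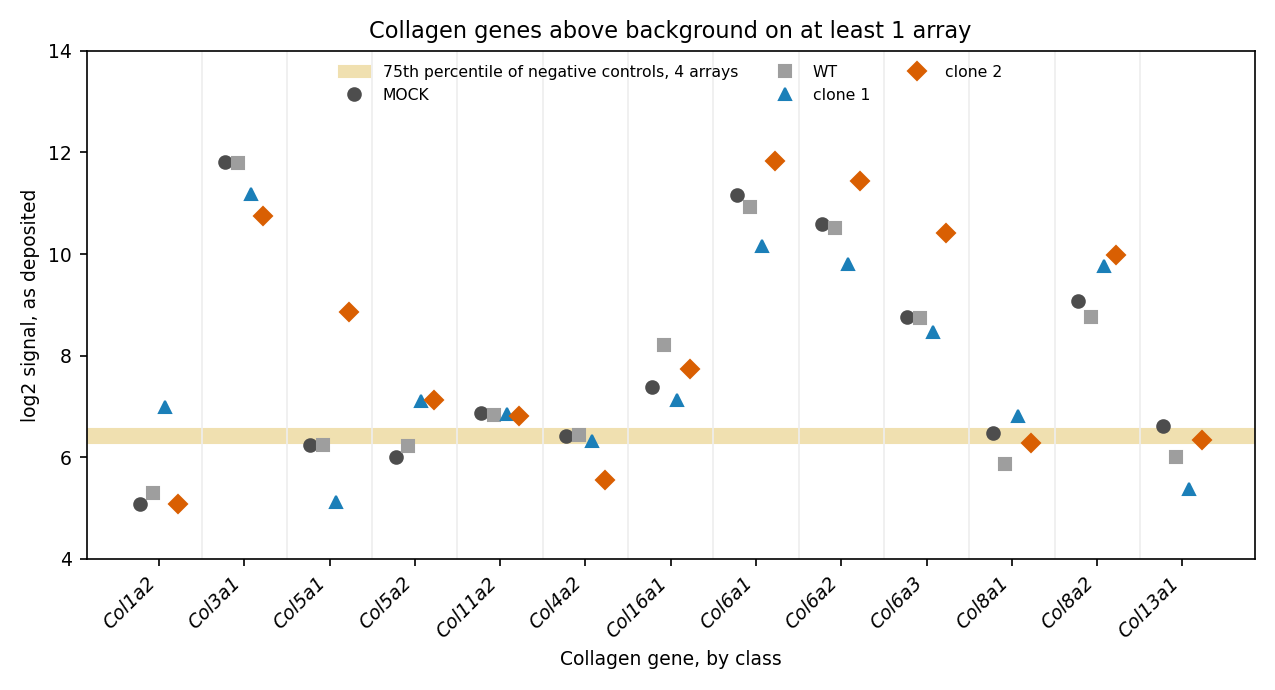
Signals of the 13 collagen genes above background on at least 1 array, as deposited, on the y axis in log2 units and by gene on the x axis, with 1 point per array and the band of the negative controls' 75th percentile. Clone 2 is highest and clone 1 lowest for Col6a1, Col6a2, Col6a3 and Col5a1, and both clones lie below both controls for Col3a1 and Col4a2 and above them for Col8a2 and Col5a2.

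No collagen gene passed the test between knockout and control. Limma called 0 of 42 at an adjusted p under 0.05, with a lowest adjusted p of 0.468, against 0.0405% of all probe sets. The count at an unadjusted p under 0.05 was 3, or 7.14%, against 8.75% of all probe sets, and the genes were Col5a2, Col8a2 and Col6a6, the last below background throughout. After quantile normalization limma called 0 of 42 as well, with a lowest adjusted p of 0.421, against 0.0045% of all probe sets. With eBayes set to trend and robust it called 0, against 340 of all probe sets. It gave 4 at an unadjusted p under 0.05, for which no share of all probe sets is given. The knockout mean lay above the control mean for 27 genes, or 64.3%, against 65.1% of all probe sets, and for 22, or 52.4% against 48.3%, after quantile normalization. Both clones lay above both controls for 12 genes, or 28.6%, against 27.8% of all probe sets, and below both for 6, or 14.3%, against 11.7%. After quantile normalization these counts were 8 and 11, against 19.2% and 21.3% of all probe sets. These shares were near the background. Their median difference, knockout minus control, was 0.08 log2 units as deposited and 0.01 after quantile normalization.

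The 3 main type VI chain genes lay on opposite sides of the controls in the 2 clones. Col6a1, which encodes the alpha-1 chain, read 11.16 (MOCK), 10.93 (WT), 10.17 (clone 1) and 11.82 (clone 2) (log2 signal). Col6a2, for the alpha-2 chain, stood at 10.59, 10.52, 9.81 and 11.43 in the same order. Col6a3, whose long alpha-3 chain is needed to complete the trimer, stood at 8.75, 8.74, 8.47 and 10.42. In each of the 3 genes clone 1 was the lowest array, clone 2 the highest, and MOCK and WT lay between them and within 0.23 log2 units of each other. Clone 2 was 3.16-fold above clone 1 for Col6a1, 3.07-fold for Col6a2 and 3.88-fold for Col6a3. After quantile normalization the differences, clone 2 minus clone 1, were 1.48, 1.42 and 1.75 log2 units, against 1.66, 1.62 and 1.95 as deposited. These are differences between single arrays and have no test.

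The group means of these chains differed by less than the SD between the clones. The knockout mean of Col6a1 was 10.99 ± 1.17 (SD, n = 2) against 11.04 ± 0.16 in the controls, a difference of -0.05 log2 units (SE 0.52, limma adjusted p = 0.988). For Col6a2 it was 10.62 ± 1.15 against 10.56 ± 0.05, and for Col6a3 9.44 ± 1.38 against 8.75 ± 0.01 (SE 0.56, limma adjusted p = 0.764). The sign of the Col6a2 difference turned from 0.06 as deposited to -0.38 after quantile normalization. The further type VI chain genes Col6a4, Col6a5 and Col6a6 were below background on all arrays. Col6a6 read 3.87 (MOCK), 3.51 (WT), 4.73 (clone 1) and 4.71 (clone 2). Counted over all collagen genes, clone 2 lay above and clone 1 below both controls in 6 of 42, or 14.3%, against 9.56% of all probe sets, and in 6 of 42 against 9.06% after quantile normalization. The reverse order was seen in 1 gene, Col26a1, below background, against 5.78% of all probe sets. After quantile normalization it was seen in 4 genes, Col1a2, Col8a1, Col9a1 and Col26a1, against 9.38% of all probe sets.

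The promoters of the type VI genes are shown because these members had the same order of arrays while lying in different places. Col6a1 and Col6a2 are neighbours on chromosome 10, and Col6a3 lies on chromosome 1. The 250 bases before each RefSeq start site are printed 5′ to 3′ on the strand of the gene (build GRCm38.p6). Capitals mark matches, on either strand, to CCAAT, to the GC box GGGCGG, to the TATA box TATAAA or to the AP-1 motif TGANTCA. Overlapping matches of the GC box were counted singly. RefSeq gives 2 start sites for Col6a2, and both windows are shown.
Col6a1, chr10:76726045-76726294, minus strand: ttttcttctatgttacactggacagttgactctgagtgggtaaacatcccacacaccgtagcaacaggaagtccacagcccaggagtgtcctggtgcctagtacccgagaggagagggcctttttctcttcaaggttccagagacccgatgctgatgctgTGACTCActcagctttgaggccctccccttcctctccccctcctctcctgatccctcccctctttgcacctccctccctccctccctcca
Col6a2, chr10:76623631-76623880, minus strand: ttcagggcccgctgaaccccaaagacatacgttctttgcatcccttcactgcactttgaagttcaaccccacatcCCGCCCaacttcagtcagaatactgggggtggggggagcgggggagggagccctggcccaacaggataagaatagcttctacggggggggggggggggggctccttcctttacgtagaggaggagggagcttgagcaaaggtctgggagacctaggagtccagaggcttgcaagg
Col6a2, chr10:76623405-76623654, minus strand: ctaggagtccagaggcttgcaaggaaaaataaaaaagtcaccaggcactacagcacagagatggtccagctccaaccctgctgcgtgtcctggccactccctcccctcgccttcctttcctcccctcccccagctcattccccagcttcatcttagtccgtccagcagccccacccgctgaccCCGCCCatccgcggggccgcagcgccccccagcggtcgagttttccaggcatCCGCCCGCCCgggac
Col6a3, chr1:90843972-90844221, minus strand: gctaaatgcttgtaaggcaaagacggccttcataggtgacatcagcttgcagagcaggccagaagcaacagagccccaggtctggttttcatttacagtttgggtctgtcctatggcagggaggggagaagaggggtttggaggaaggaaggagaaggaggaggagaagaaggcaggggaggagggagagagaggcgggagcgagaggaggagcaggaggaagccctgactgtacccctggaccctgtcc
None of the 4 motifs was shared between these genes. The Col6a1 window had 1 match to the AP-1 motif and none to the other motifs. The Col6a2 windows had 1 and 3 GC boxes, and the Col6a3 window had none of the 4 motifs. Over all 32851 RefSeq windows of this length, 6.7% held the AP-1 motif, 32.7% the GC box, 33.8% CCAAT and 12.4% TATAAA. Of the 37 windows of 34 collagen genes on the array, 2.7%, 56.8%, 32.4% and 13.5% did, and their median GC content was 59.2% against 52.4% over all windows. The match of letters says nothing about binding.

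The signed median of clone 2 minus clone 1 around the type VI loci was smaller than the difference of the collagens. Opposite differences cancel in such a median, and some single neighbours differed more widely. Among the 18 measured genes nearest to Col6a1 that are not collagens, the median of clone 2 minus clone 1 was -0.02 log2 units, and among the 20 around Col6a3 it was 0.25. The gene next to Col6a1 on the far side from Col6a2, Pcbp3, differed by 1.22 log2 units. Around Col6a3, Glrp1 and Rab17 differed by 1.28 and 1.03 log2 units and Agap1 by -1.96. Around Col5a1 the median was 0.09. There Fcnb and Dbh, not above background, differed by 1.21 and 1.05, and Ralgds and Olfm1 by -1.23 and -1.03.

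**Figure D2:**
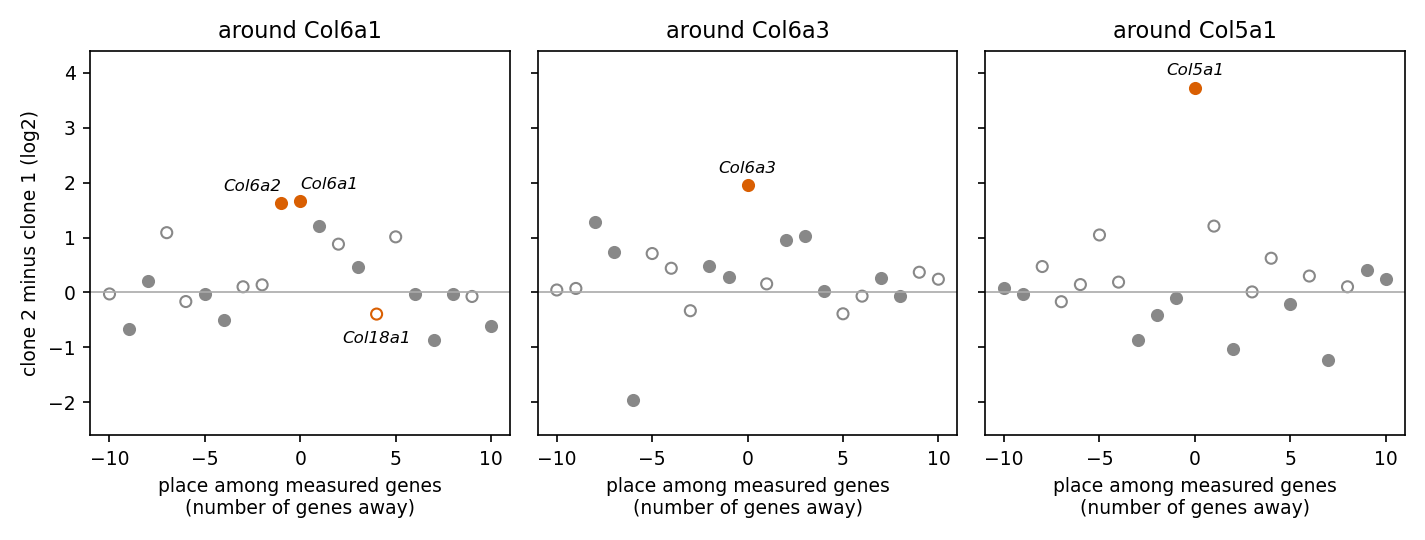
Clone 2 minus clone 1 in log2 signal as deposited (y axis) for the measured genes up to 10 places to either side of Col6a1, Col6a3 and Col5a1 (x axis, place in chromosome order), with collagens in orange and open points for genes not above background on any array. Col6a1 and Col6a2 stand at 1.66 and 1.62, Col6a3 at 1.95 and Col5a1 at 3.73.

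Among the fibrillar genes, Col5a1 and Col1a2 differed between the clones, and Col3a1 and Col5a2 lay to one side of the controls in both. Col5a1 encodes the alpha-1 chain of type V, which seeds fibrils and sets their width. It read 6.24 (MOCK), 6.23 (WT), 5.12 (clone 1) and 8.85 (clone 2) (log2 signal). Clone 2 was the only array above background, and clone 1 was below the median of its negative controls, 5.16. The difference between the group means was 0.75 log2 units (SE 0.89, limma adjusted p = 0.849), with an SD of 2.64 between the clones and of 0.002 between the controls. Without clone 1 the difference was 2.62 log2 units, and without clone 2 it was -1.11, each from a lone clone. After quantile normalization the 4 signals were 6.30, 6.47, 5.15 and 8.54.

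Col3a1, the type III chain of elastic tissues and of healing wounds, read 11.80 (MOCK), 11.79 (WT), 11.19 (clone 1) and 10.75 (clone 2). Both clones were below both controls, which differed from each other by 0.02 log2 units. The knockout mean of 10.97 ± 0.31 (SD, n = 2) was 1.77-fold below the control mean of 11.80 ± 0.01, which did not pass the test (SE 0.38, limma adjusted p = 0.577). After quantile normalization the difference was -1.29 log2 units (limma adjusted p = 0.421), and WT then stood above MOCK, at 12.38 against 11.72. Over all alternatives the difference stayed between -1.29 and -0.61.

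Col5a2, for the alpha-2 chain of type V, is the measured gene next to Col3a1 on chromosome 1, and it went the other way. It stood at 6.01 in MOCK and 6.22 in WT, under the background line of both arrays, and at 7.10 in clone 1 and 7.12 in clone 2. The clones were above both controls and within 0.02 log2 units of each other. The difference, 0.99 as deposited and 0.67 quantile normalized, did not pass the test (SE 0.37, limma adjusted p = 0.481 and 0.586). Wdr75, the gene after Col5a2, differed by 0.88 log2 units, and the median over 19 neighbours of Col5a2 that are not collagens was 0.21.

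The promoter windows of Col5a1 and Col3a1 are shown because one held the widest spread over the arrays and the other lay lower in both clones. They are printed in the same way.
Col5a1, chr2:27886175-27886424, plus strand: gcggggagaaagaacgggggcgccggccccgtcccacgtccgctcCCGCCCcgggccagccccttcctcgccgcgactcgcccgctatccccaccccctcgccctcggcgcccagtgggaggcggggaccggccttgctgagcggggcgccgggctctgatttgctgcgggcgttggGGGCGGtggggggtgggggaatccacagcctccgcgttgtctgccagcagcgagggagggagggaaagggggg
Col3a1, chr1:45311288-45311537, plus strand: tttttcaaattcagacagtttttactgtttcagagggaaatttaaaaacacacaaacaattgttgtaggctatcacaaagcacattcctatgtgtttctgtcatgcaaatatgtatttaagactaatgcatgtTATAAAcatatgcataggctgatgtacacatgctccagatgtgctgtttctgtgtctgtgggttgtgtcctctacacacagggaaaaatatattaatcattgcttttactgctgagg
The Col5a1 window had a GC content of 76.4% and 2 GC boxes. The Col3a1 window had a GC content of 35.2%, 1 TATA box and no GC box.

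The type I genes, the main fibrillar collagen of most tissues, were near background. Col1a2 read 5.08 (MOCK), 5.29 (WT), 6.99 (clone 1) and 5.09 (clone 2), so clone 1 was the only array above background. Its partner Col1a1 stood at 4.87, 4.89, 4.92 and 5.99, with clone 2 the highest and no array above background. The 2 chains of type I thus had their highest signal in different clones. Neither difference between group means passed the test (limma adjusted p = 0.713 for Col1a2). Col11a2, a minor fibrillar chain of cartilage, ran only from 6.81 to 6.88 over the 4 arrays as deposited. After quantile normalization it stood at 6.94, 7.14, 6.79 and 6.54 (limma adjusted p = 0.746). Both clones were then below both controls, as in 21.3% of all probe sets. The other 6 fibrillar genes were Col2a1, Col5a3, Col11a1, Col24a1 and Col27a1, beside Col1a1, and all were below background. The class median, knockout minus control, was 0.58 as deposited and 0.46 quantile normalized (log2 units), with 8 of 11 genes higher. That median was 0.37 without clone 1 and 0.00068 without clone 2.

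Of the basement membrane genes, only Col4a2 was above background, and on WT alone. It read 6.43 (MOCK), 6.44 (WT), 6.31 (clone 1) and 5.55 (clone 2), lowest in clone 2 (limma adjusted p = 0.763). Col4a1, which pairs with it in the common type IV trimer and starts head to head with it on chromosome 8, stood at 5.05, 5.30, 4.92 and 4.51 and was also lowest in clone 2. The signals of Col4a3 to Col4a6, which are found in kidney and other specialised basement membranes, ran within the background range. So did those of Col15a1 and Col18a1, the latter the precursor of the fragment endostatin. The class median was 0.14 log2 units, and 0.06 after quantile normalization, with 5 of 8 higher. It was -0.18 with Col15a1 and Col18a1 counted among the other collagens, and 0.047 without WT. A filter at the median signal left Col4a2 alone in the class, at -0.50.

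Among the fibril-associated genes Col16a1 alone was above background, and Col9a1, Col9a2, Col9a3, Col14a1, Col19a1, Col20a1 and Col22a1 were not on any array. It read 7.38 (MOCK), 8.21 (WT), 7.13 (clone 1) and 7.74 (clone 2), and the groups overlapped. The difference of -0.36 log2 units did not pass the test (SE 0.43, limma adjusted p = 0.852). The class median was 0.04 log2 units, and -0.11 after quantile normalization.

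Col8a2, a short-chain collagen of vessel walls and of the cornea, was the only collagen gene above background on all arrays in which both clones exceeded both controls. It read 9.08 (MOCK), 8.76 (WT), 9.76 (clone 1) and 9.99 (clone 2). The knockout mean of 9.87 ± 0.16 (SD, n = 2) was 1.93-fold above the control mean of 8.92 ± 0.23 (SE 0.38, limma adjusted p = 0.512). After quantile normalization the difference was 0.52 log2 units (limma adjusted p = 0.643), and the median over its 20 neighbours on chromosome 4 was 0.34 as deposited. Its partner chain gene Col8a1 stood at 6.49, 5.86, 6.80 and 6.27, near background. Col13a1, a transmembrane collagen, stood at 6.61, 6.0002, 5.37 and 6.34, and was lowest in clone 1. After quantile normalization it stood at 6.66, 6.22, 5.40 and 6.12 (limma adjusted p = 0.621). Both clones were then below both controls, as in 21.3% of all probe sets. The remaining short-chain, transmembrane and other genes, Col10a1, Col17a1, Col23a1, Col25a1, Col26a1 and Col28a1, were below background.

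Each clone was then set against both controls. In clone 1, 1 collagen gene lay at least 1 log2 unit above both controls (Col1a2) and 1 at least as far below (Col5a1, below background on these 3 arrays), or 2.38% each way, against 3.57% and 1.11% of all probe sets. In clone 2, 4 lay above (Col5a1, Col6a3, Col1a1 and Col19a1), or 9.52% against 7.14%, and 1 below (Col3a1), or 2.38% against 1.15%. Col1a1 and Col19a1 were below background on every array. Between MOCK and WT 0 of 42 genes were 1 log2 unit apart in either direction, against 8.79% of probe sets higher in MOCK and 1.27% higher in WT. Between the clones, 5 genes were at least 1 log2 unit higher in clone 2, or 11.9% against 8.6%, and 1 in clone 1, or 2.38% against 4.12%. Quantile normalization left 1 gene above (2.41% of all probe sets) and 2 below (1.62%) in clone 1, the latter Col5a1 and Col6a1. In clone 2 it left 2 above, Col5a1 and Col19a1 (3.8% of all probe sets), and 2 below, Col3a1 and Col4a2 (2.71%). It gave 0 genes higher in MOCK (1.85%) and 1 higher in WT, Col16a1 (2.67%). Both clone comparisons share the control arrays.

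**Figure D3:**
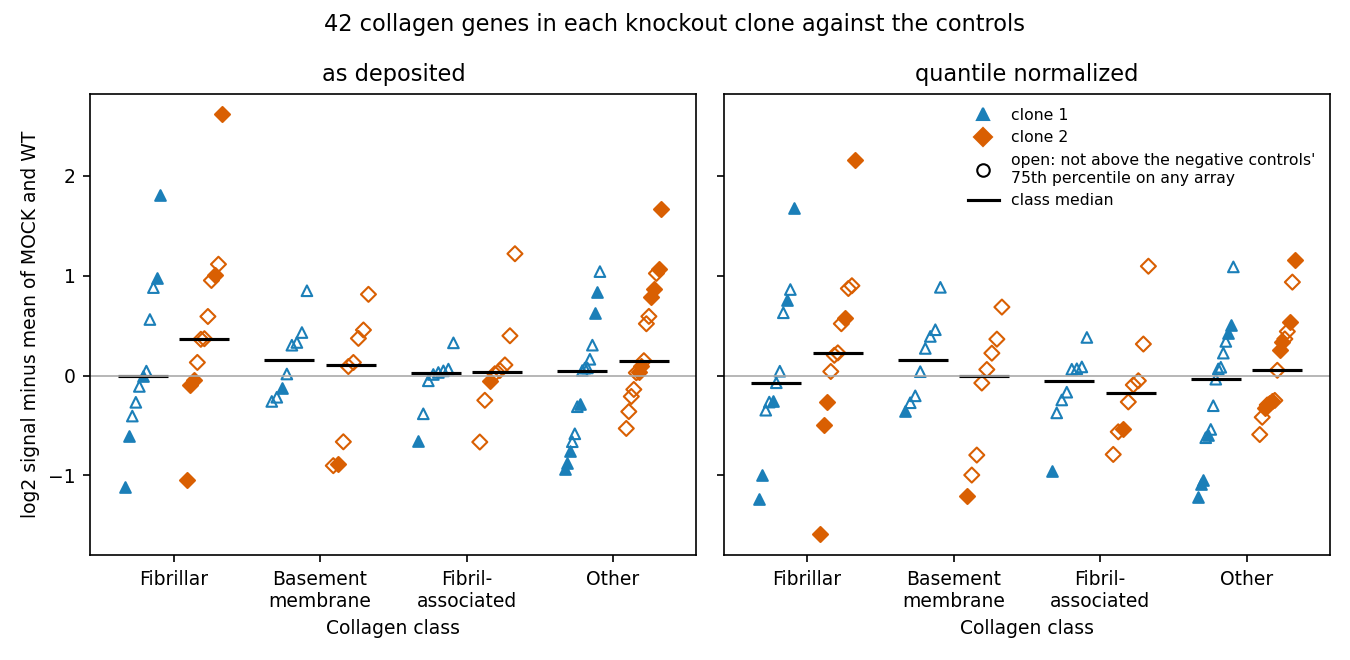
Signal of each of the 42 collagen genes in clone 1 and in clone 2 minus the mean of MOCK and WT (y axis, log2 units) by class (x axis), as deposited on the left and quantile normalized on the right, with class medians as bars and open symbols for genes not above background on any array. The class medians lie within 0.37 log2 units of 0 as deposited, and the widest values are Col5a1 at 2.62 in clone 2 and Col1a2 at 1.81 in clone 1.

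Genes that fold, modify and export collagen did not pass the test either. Of 22 measured genes 15 were higher and 7 lower in the knockout, with 0 called by limma in either direction and 2 at an unadjusted p under 0.05. Over all probe sets 65.1% were higher and 8.75% had such a p, and after quantile normalization 12 of the 22 were higher. Their median was 0.40 as deposited and 0.11 quantile normalized (log2 units). The largest difference was that of Serpinh1, the collagen chaperone HSP47. It read 13.13 (MOCK), 12.34 (WT), 14.28 (clone 1) and 13.90 (clone 2), above both controls in both clones. The difference was 1.35 log2 units (SE 0.42, limma adjusted p = 0.368), and 0.85 quantile normalized. Colgalt1, a galactosyltransferase that glycosylates collagen hydroxylysines, stood at 12.16, 11.96, 12.91 and 12.94, a difference of 0.86 log2 units (limma adjusted p = 0.545) and of 0.38 quantile normalized. The prolyl hydroxylase subunit gene P4ha3, the lysyl hydroxylase gene Plod1 and the cyclophilin B gene Ppib differed by 0.84, 0.74 and 0.69 log2 units, or 0.44, 0.32 and 0.23 after quantile normalization.

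Among 12 genes of propeptide processing and cross-linking 9 were higher and 3 lower, with 0 called by limma and 3 at an unadjusted p under 0.05, beside 65.1% and 8.75% of all probe sets. After quantile normalization 8 of the 12 were higher. Their median was 0.43 as deposited and 0.10 quantile normalized (log2 units). Pcolce, whose product speeds removal of the carboxyl propeptide of fibrillar procollagens, read 12.71 (MOCK), 12.47 (WT), 14.53 (clone 1) and 13.94 (clone 2). That difference of 1.65 log2 units, 1.12 after quantile normalization, was the largest of the list (SE 0.39, limma adjusted p = 0.225). Its relative Pcolce2 stood at 8.75, 8.25, 9.65 and 9.35, and the lysyl oxidase-like gene Loxl4 at 7.59, 6.99, 7.98 and 8.63, with both clones above both controls. Their differences were 1.00 and 1.02 log2 units as deposited, and 0.57 and 0.64 quantile normalized. Bmp1, which encodes the carboxyl-propeptide proteinase itself, differed by 0.59 log2 units with overlapping groups, by 0.19 quantile normalized and by 0.051 without MOCK. Lox, the founding lysyl oxidase, was above background in MOCK alone, at 6.70, and stood at 4.46, 4.78 and 4.17 in WT, clone 1 and clone 2. Its difference of -1.10 log2 units was 0.019 without MOCK.

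Of 8 measured collagen receptor genes 6 were higher and 2 lower, with 0 called by limma, 2 at an unadjusted p under 0.05 and a median of 0.33, or 0.01 quantile normalized. Over all probe sets 65.1% were higher and 8.75% had such a p, and after quantile normalization 4 of the 8 were higher. The discoidin receptor Ddr2, which binds fibrillar collagen, read 13.63 (MOCK), 12.84 (WT), 13.99 (clone 1) and 14.42 (clone 2) (limma adjusted p = 0.545). Its difference was 0.97 log2 units, and 0.49 quantile normalized. Ddr1, the epithelial member of that pair, stood at 4.47, 4.10, 5.26 and 6.46, below background on all arrays (limma adjusted p = 0.353). The integrin subunit gene Itgb1 differed by 0.43 log2 units as deposited and by -0.02 after quantile normalization.

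**Figure D4:**
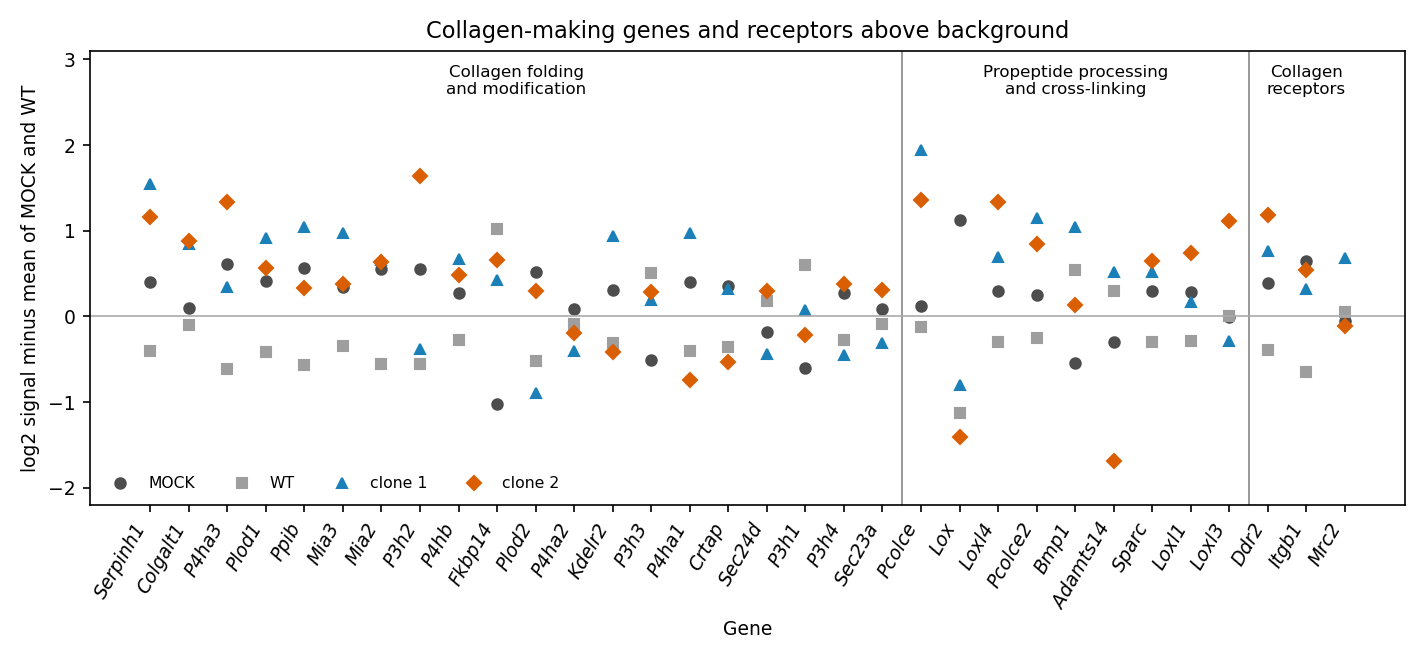
Signal of each gene of collagen folding, processing and reception that was above background on at least 1 array (x axis) minus the mean of MOCK and WT (y axis, log2 units), with 1 point per array, as deposited. Both clones lie above both controls for Serpinh1, Colgalt1, Plod1, Mia2, Mia3, P4hb, Pcolce, Pcolce2, Loxl4, Sparc and Ddr2, and below both for P4ha2. After quantile normalization, not plotted, this no longer holds for Plod1, Mia2, Mia3, P4hb and Sparc, and Plod2, Crtap, P3h4 and Sec23a join P4ha2, where the shares of all probe sets above and below are 27.8% and 11.7% as deposited and 19.2% and 21.3% quantile normalized.

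Of the 5 fibroblast markers above background on at least 1 array, Postn, Twist2 and Pdgfrb were highest in clone 2 as deposited. Twist1 and Dcn were not, and after quantile normalization Pdgfrb was highest in WT. Postn, for the matrix protein periostin, read 6.41 (MOCK), 4.91 (WT), 4.79 (clone 1) and 9.09 (clone 2), above background in clone 2 only. Twist2 stood at 11.55, 11.07, 11.95 and 13.01, so clone 1 was above both controls, unlike in type VI. Twist1 stood at 9.58, 8.82, 8.88 and 8.81, lowest in clone 2. The small proteoglycan gene Dcn was lower in both clones, at 12.95, 13.61, 8.94 and 11.18 (limma adjusted p = 0.121). The summed level of the 10 fibroblast markers, as the log2 of their added signals, was 13.84 and 14.13 for MOCK and WT, against 13.03 and 13.95 for clones 1 and 2. Dcn made up most of that sum in the controls and little of it in the clones. Of the 10 markers 7 were higher in the knockout, against 65.1% of all probe sets, and 6 after quantile normalization, against 48.3%. The median of their differences was 0.45 as deposited and 0.36 quantile normalized (log2 units). In bulk RNA a change in the number of cells of a type and a change in RNA per cell cannot be told apart, and the part of the fibroblast markers in the collagen values was not tested.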

How the data were processed

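RNA of 4 MC38 cell populations was measured on Clariom S mouse arrays. The deposited values are log2 signals, 1 per feature and array, made by the authors with the Transcriptome Analysis Console, per the submitters' processing notes. The sources used here do not give the normalization, the filters or the genome build. The log2 scale was read from the values. Of 28846 features 6640 are controls by their identifiers and stayed out of the fit, which used all 22206 other probe sets. Symbols came from the platform table and matched RefSeq (GRCm38.p6) for 19572 probe sets. The other 2634 had no symbol or more than 1 and were left unnamed. A gene annotated only on those counts here as not measured. No column lacked a sample (0).

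Limma 3.58.1 in R 4.3.3 compared knockout with control, 2 arrays each, and Benjamini-Hochberg adjustment ran over all probe sets. Standard errors are moderated. Medians, counts and differences between single arrays have no test. Quantile normalization, median centring, filters, other variance settings and leaving out each array were the alternatives. Members and lists were chosen with earlier results of these data known. The naming rule takes collagen genes that were called, or above background and spread over at least 2 log2 units, which was Col5a1 alone (the next was Col6a3 at 1.95). Other collagen genes given with 4 values were chosen after their values were seen. Col7a1 and Col12a1 were not analysed here. Classes and lists were written down by hand. The number of arrays limits the precision.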

Additional observations from a re-analysis of the deposited data

Results flagged for a closer look

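In 4 of the 13 collagen genes above background on at least 1 array the clones lay on opposite sides of both controls, with clone 2 above and clone 1 below. Clone 2 minus clone 1 was 3.73 log2 units for Col5a1, 1.66 for Col6a1, 1.62 for Col6a2 and 1.95 for Col6a3. Col5a1 was above background in clone 2 only, so its place of clone 1 below the controls, and the size of its difference, rest on signals not above background. The same order held after quantile normalization, at 3.39, 1.48, 1.42 and 1.75. The difference between the clones was not tested, since each is 1 array. Without regard to background, 6 of 42 collagen genes showed this order as deposited, or 14.3%, against 9.56% of all probe sets. The matching share among probe sets above background is not given here, so the 4 of 13 cannot be set against one.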

How the results depend on the processing

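No paired analysis was possible because the control titles carry no replicate numbers. Limma called 0 collagen genes in each alternative that kept all 4 arrays. With 1 array left out, 1 group holds a lone array, so no count of calls is given. The Col5a1 difference without clone 1 was 2.62 log2 units. Limma with trend and robust called 340 probe sets in all against 9, and 0 collagen genes. Leaving out 1 array, the genes above both controls numbered 15 to 20 and those below 8 to 16, against 12 and 6, since fewer arrays must be passed. The fibrillar median then ran from 0.00068 to 0.53 and the basement membrane median from 0.047 to 0.16. Quantile normalization gave 11 genes below both controls, and medians of 0.055 for basement membrane and -0.11 for fibril-associated genes. It gave 2 genes at least 1 log2 unit below both controls in clone 1, 2 above and 2 below in clone 2, and 1 higher in WT than in MOCK. Median centring gave 7 genes above both controls, a basement membrane median of 0.0010, and 2 genes above and 2 below in clone 2. A filter at the 25th percentile of mean signal left 35 collagen genes and a basement membrane median of 0.078. A filter at the median left 16, of which 3 lay above and 2 below both controls and 2 above in clone 2. The medians, from fewer genes, were then 0.75 (fibrillar), -0.50 (basement membrane, Col4a2 alone) and -0.15 (fibril-associated). With Col15a1 and Col18a1 counted elsewhere the basement membrane median was -0.18. Averaging probe sets could change no member, as each has 1. For the counts with an array left out, with median centring and with the filters, no share of all probe sets is given. Those counts therefore cannot be set against the background.

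The differences below changed sign, and the cause was not tested. Leaving out MOCK turned those of Lox, Col6a1 and Col11a2, leaving out WT those of Col16a1 and Itgb1, leaving out clone 1 those of Col1a2, Col6a1 and Col13a1, and leaving out clone 2 those of Col5a1, Col6a2, Col6a3, Col11a2 and Postn. Col6a2 was -0.38 after quantile normalization and -0.077 after median centring, and Itgb1 was -0.020 after quantile normalization. Clone 2 minus clone 1 for Col5a2 was -0.18 and -0.15 under those settings. As arrays were left out, knockout minus control ran from -0.88 to 0.78 for Col6a1, -0.75 to 0.87 for Col6a2, -0.28 to 1.67 for Col6a3, -1.11 to 2.62 for Col5a1, -0.10 to 1.81 for Col1a2, -0.048 to 0.0035 for Col11a2, -0.77 to 0.056 for Col16a1, -0.93 to 0.032 for Col13a1, -2.23 to 0.019 for Lox, -0.22 to 1.09 for Itgb1 and -0.87 to 3.43 for Postn. Among genes that are no collagens, limma called Dcn lower under both filters and with trend and robust. It called Ddr1 higher with trend and robust (adjusted p = 0.0216).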

Other observations

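The partners of type IV collagen in basement membranes, a list chosen after the collagen values were seen, also parted between the clones in some members. Of 15 measured genes 7 were above background on all arrays and limma called 0, with 1 at an unadjusted p under 0.05. Over all probe sets these shares were 39.2%, 0.0405% and 8.75%. Between the clones, 8.6% of all probe sets were at least 1 log2 unit higher in clone 2 and 4.12% in clone 1. In this list those were Lamb2 and Nid2, the latter not above background, for clone 2, and Lamb1 and Lamc1 for clone 1. Lamb1 and Lamc1, for laminin chains that join in 1 trimer, read 11.11 and 11.59 (MOCK), 10.36 and 11.44 (WT), 11.49 and 12.39 (clone 1), and 9.60 and 10.68 (clone 2), so both were highest in clone 1 and lowest in clone 2. Lamb2, for the alternative beta chain, stood at 8.57, 8.24, 8.12 and 9.98 and was highest in clone 2. Nid1, the linker between laminin and type IV collagen, stood at 9.69, 9.64, 10.59 and 9.63. Agrn, a heparan sulfate proteoglycan, stood at 7.97, 7.97, 9.76 and 8.93, above both controls in both clones (limma adjusted p = 0.355).

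Of 6 partners of type VI collagen, chosen in the same way, none followed its order of arrays. The receptor gene Antxr1 read 10.82 (MOCK), 9.94 (WT), 10.99 (clone 1) and 11.01 (clone 2). Bgn, for the proteoglycan biglycan, stood at 6.71, 6.34, 8.08 and 8.16, higher in both clones by 1.59 log2 units, or 1.24 after quantile normalization (SE 0.38, limma adjusted p = 0.224). Antxr2 was near background, at 6.12, 6.35, 6.39 and 6.06.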
